A study of Mus musculus with 12 samples.

Results

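The regions described here are stretches of open chromatin that lie inside protein-coding genes and carry a peak in every one of 12 ATAC-seq libraries of mouse alveolar type II (AT2) cells. They were selected on measured values, namely the presence of a peak in all 12 peak lists and a merged width under 2500 bp, and on position, since each overlaps a protein-coding gene body of the RefSeq annotation of GRCm38 and lies more than 1 kb from every protein-coding gene end. Merging the lists wherever peaks overlapped by at least 1 bp gave 83727 regions on the autosomes and X, and 35222 of them (42.1%) were held by all 12 libraries. Of these, 13540 met the whole rule, which is 16.2% of all regions and 38.4% of those held by all 12. A further 10996 constitutive regions lay within 1 kb of a gene end, 9328 lay between genes and 1358 were 2500 bp or wider.

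The libraries came from AT2 cells sorted by flow cytometry, 50000 per library, from BALB/c mice of 6 to 8 weeks, 7 days after 800000 tumour cells were injected into the tail vein. Both tumours are BALB/c lines that carried a label and seed the lung, CT26 from colon carcinoma and 4T1 from mammary carcinoma. The 4 groups of 3 libraries were CT26 niche (AT2 cells beside CT26 metastases), CT26 distal (AT2 cells of lung away from them), 4T1 niche and 4T1 distal, and each library pooled 5 lungs. No tumour-free lung was analysed here, so every group, distal included, comes from a tumour-bearing animal.

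AT2 cells make pulmonary surfactant, store it in lamellar bodies and can divide and give rise to the flat alveolar type I (AT1) cells. ATAC-seq marks DNA that the Tn5 transposase can reach, which in gene bodies is mostly enhancers, binding sites of other factors and the starts of shorter transcripts. An enhancer inside a gene need not act on that gene, so a host gene below is a position and not a target.

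Some of the regions held a transcription start of their own host gene, inside the gene and away from its outer end. The 250 bases before 7 such starts are printed because they show what an internal start inside a constitutive region looks like in genes of AT1 cells, epithelial junctions, lipid supply, retinoic acid, Wnt and epithelial growth factor signalling. They are from RefSeq, build GRCm38.p6, and read 5′ to 3′ along the gene. Capitals mark matches on either strand to 9 motifs, and where matches overlap each is marked. For promoter elements these are GGGCGG for the GC box, CCAAT as the letters of the CCAAT box, and TATAAA as those of the TATA box. For AP-1 the letters are TGANTCA. ETS factors are represented by CCGGAAG. C/EBP factors are represented by TTGCNNAA. FOXA factors are represented by TGTTTAC. TEAD factors are represented by GGAATG, and the retinoic acid receptor by GTTCAC repeated after a gap of 5 bases. The windows are chr3:129725087-129725336 (minus strand, Egf, the growth factor), chr1:121327679-121327928 (minus, Insig2, which retains SREBP precursors in the endoplasmic reticulum), chr14:16575477-16575726 (minus, Rarb, retinoic acid receptor beta), chr9:99710064-99710313 (minus, Cldn18, a tight junction claudin with a lung and a stomach form), chr11:108920099-108920348 (plus, Axin2, a Wnt feedback inhibitor), chr17:44188322-44188571 (plus, Clic5, an AT1 marker) and chr11:60210472-60210721 (minus, Srebf1, the lipogenic transcription factor).
Egf: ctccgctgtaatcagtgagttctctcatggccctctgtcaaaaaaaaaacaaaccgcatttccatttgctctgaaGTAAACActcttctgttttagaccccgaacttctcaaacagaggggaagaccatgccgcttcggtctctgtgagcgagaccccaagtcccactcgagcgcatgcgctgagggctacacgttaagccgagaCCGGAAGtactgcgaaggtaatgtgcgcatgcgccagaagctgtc
Insig2: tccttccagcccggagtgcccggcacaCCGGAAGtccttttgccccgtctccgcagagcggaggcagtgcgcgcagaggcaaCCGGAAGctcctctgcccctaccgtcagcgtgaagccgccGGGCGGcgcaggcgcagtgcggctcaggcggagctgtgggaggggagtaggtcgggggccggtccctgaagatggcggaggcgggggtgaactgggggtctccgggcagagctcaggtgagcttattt
Rarb: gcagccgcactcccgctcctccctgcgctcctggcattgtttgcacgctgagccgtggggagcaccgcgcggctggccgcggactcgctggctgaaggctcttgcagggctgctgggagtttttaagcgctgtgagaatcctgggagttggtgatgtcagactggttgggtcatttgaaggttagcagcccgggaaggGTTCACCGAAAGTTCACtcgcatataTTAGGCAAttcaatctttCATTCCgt
Cldn18: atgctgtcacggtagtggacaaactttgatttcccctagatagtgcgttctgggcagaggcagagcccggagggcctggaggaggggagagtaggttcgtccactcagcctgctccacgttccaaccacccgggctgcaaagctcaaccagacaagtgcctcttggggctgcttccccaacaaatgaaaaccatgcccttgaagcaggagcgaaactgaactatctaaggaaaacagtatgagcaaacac
Axin2: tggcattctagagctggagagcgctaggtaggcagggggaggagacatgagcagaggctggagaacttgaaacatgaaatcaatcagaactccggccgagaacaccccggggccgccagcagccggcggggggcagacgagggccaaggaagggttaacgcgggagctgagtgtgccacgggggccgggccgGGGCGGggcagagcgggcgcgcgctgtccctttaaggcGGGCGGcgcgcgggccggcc
Clic5: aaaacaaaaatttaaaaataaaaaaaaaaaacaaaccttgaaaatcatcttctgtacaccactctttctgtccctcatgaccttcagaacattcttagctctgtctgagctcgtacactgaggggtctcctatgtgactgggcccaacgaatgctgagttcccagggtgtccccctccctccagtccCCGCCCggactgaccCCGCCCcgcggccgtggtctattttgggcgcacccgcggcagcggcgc
Srebf1: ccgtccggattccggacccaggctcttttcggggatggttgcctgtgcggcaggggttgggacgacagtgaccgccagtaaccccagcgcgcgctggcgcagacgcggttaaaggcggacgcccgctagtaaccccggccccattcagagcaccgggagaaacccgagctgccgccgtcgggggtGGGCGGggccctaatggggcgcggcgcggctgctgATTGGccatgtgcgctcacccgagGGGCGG

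The Rarb window holds the repeat GTTCACCGAAAGTTCAC, followed by 1 C/EBP and 1 TEAD match. It was the only window with this repeat among 21045 windows of protein-coding starts (0.00475%). Only these exact letters, which are those of the Rarb site itself, were searched. The count therefore does not show how rare sites of the receptor are. Insig2 has 2 ETS matches and 1 GC box, Egf 1 ETS and 1 FOXA match, Srebf1 2 GC boxes and 1 CCAAT box, Axin2 and Clic5 2 GC boxes each, and the Cldn18 window has none of these letters. Another Insig2 window in the same region was not printed, and its 300 bases held 1 GC box and no ETS match. Measured from the outer end of the RefSeq gene, the Axin2 start lay 2.52 kb inside, the Insig2 start 4.98 kb, the Cldn18 start 7.20 kb, the Srebf1 start 13.7 kb, the Egf start 30.2 kb, the Clic5 start 53.8 kb and the Rarb start 507 kb.

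The surrounding regions were of very different strength, here the percentile of a peak's fold enrichment within its own library's list, a value of the authors' peak caller that is used only for ranking within a list. The Egf region stood between the 98.8th and 100.0th percentile in the 12 lists, the Insig2 region between 80.1 and 93.5, the Rarb region between 66.6 and 90.6, and the Srebf1 region between 11.6 and 56.7. The Rarb region covered 889, 772 and 705 bp in CT26 niche, 820, 831 and 820 bp in CT26 distal, 820, 886 and 860 bp in 4T1 niche and 1002, 944 and 889 bp in 4T1 distal libraries. The 4T1 niche values lay below all 4T1 distal values, while the CT26 niche and distal values overlapped. The Srebf1 region varied most within groups, with 1604, 1362 and 321 bp in CT26 niche and 931, 1902 and 1600 bp in 4T1 niche libraries.

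Protein-coding starts were present in 1046 of the 13540 regions (7.73%), and 166 more held only a noncoding start. Among the 26291 other regions of the same position and width that at least 1 library lacked, 1.43% held a start of either kind, against 8.95% of the constitutive gene-body regions. The 1220 coding windows inside them had a median GC content of 60.7% and 19 CG dinucleotides, against 56.7% and 13 over all 21045 coding windows. GC boxes were present in 60.7% of them against 46.7% of all windows, the CCAAT letters in 34.1% against 38.5%, and TATAAA in 5.57% against 12.7%. The AP-1, ETS, C/EBP, FOXA and TEAD letters differed less, with 6.56%, 12.5%, 9.34%, 2.13% and 13.2% of the windows, against 7.04%, 11.7%, 10.3%, 3.03% and 13.5% of all. The 21045 windows include these 1220 and also starts outside any constitutive region. Starts in constitutive regions at gene ends were not compared, so whether these differences are particular to internal starts was not tested. Regions with a coding start were also stronger than those with no start. Over the 12 libraries their median fold percentile averaged 71.6 ± 2.09, against 59.9 ± 4.78 (SD), higher in 12 of 12 libraries, and their median length under peaks was longer by 251 ± 16.7 bp (exact sign-flip test over libraries, two-sided, adjusted p = 0.000586 for both, over 6 tests). This p is the smallest that 12 libraries allow before adjustment.

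The regions were narrow and overlapped only in part between libraries. The median merged width was 1074 bp (quartiles 843 and 1421, range 305 to 2498), and the stretch shared by all 12 libraries had a median of 451 bp, or 44.7% of the width. In 89 regions no base was shared by all 12, and 95.2% of the regions were a single peak in every library. The coefficient of variation of the length over the 12 libraries had a median of 18.7%. Only 264 regions (1.95%) were in the top 10% of fold enrichment in every list, while 1877 (13.9%) were below the median in every list.

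Near the limits of the rule values changed little in width and position and more in presence. The 119 regions of 2400 to 2499 bp had a median percentile of 42.8, and the 77 of 2500 to 2599 bp just outside had 37.5. The 398 regions at 1001 to 1500 bp from a gene end had a median percentile of 64.4, and the 413 at 501 to 1000 bp had 67.8. The 2427 regions held by 11 libraries had a median of 37.7 and 500 bp where called, against 60.0 and 765 bp for the 13540 held by all 12.

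The 10 regions of highest fold enrichment were narrow, with a median width of 707 bp. A region of 305 bp in Gphn (gephyrin, a synaptic scaffold and molybdenum cofactor enzyme), chr12:78350870-78351174, had a deposited fold of 20.8 to 25.3 over the 12 lists, and covered 300 to 305 bp in every library. Regions in Zc3h7a (406 bp) and Jarid2 (a subunit of Polycomb repressive complex 2, 453 bp) followed, with mean folds of 19.3 and 15.4. Others of the 10 lay in Rpp40 (a ribonuclease P subunit), Pigo (GPI anchor synthesis), Egf, Cacna2d3 (a calcium channel subunit), Exo1 (a DNA repair exonuclease) and Taf1 (a TFIID subunit), at mean percentiles of 99.5 to 99.8. The edges of the top 3 regions hardly moved between libraries, and none of the 10 is a marker of a lung cell type. No filter for repeats or poorly mappable sequence was applied to the regions here, and the part of such sequence in these 10 was not tested.

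The strongest regions in genes of the AT2 programme reached upper but not extreme ranks. Only the best region of each of the 6 highest among 13 host genes is given, so upper ranks follow from the choice. The AT2 marker regions with the highest mean percentile lay in Hc (complement C5, 90.9), Lamp3 (a lamellar body membrane protein, 88.5), Napsa (the protease napsin A, 85.2), Atp8a1 (a phospholipid flippase, 78.6), Egfl6 (77.1) and Abca3 (the lamellar body lipid transporter, 73.4). The Lamp3 region, chr16:19698888-19699953, covered 942, 773 and 834 bp in CT26 niche, 886, 848 and 825 bp in CT26 distal, 862, 999 and 766 bp in 4T1 niche and 917, 926 and 931 bp in 4T1 distal libraries, and the groups overlapped. The Abca3 region, chr17:24365329-24366395, covered 979, 937 and 543 bp in CT26 niche and 856, 858 and 789 bp in CT26 distal libraries. Its 4T1 niche values of 879, 1037 and 807 bp overlapped the 4T1 distal values of 900, 968 and 954 bp.

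AT1 marker genes were also open in these AT2 cells. By the same choice of best regions, the highest lay in Col4a3 (92.7) and Col4a4 (84.1), 2 basement membrane collagen chains. Others lay in Clic5 (90.7), Rtkn2 (90.7), Limch1 (83.5) and Hopx (88.8), a homeodomain protein of AT1 cells. Among transcription factors of lung epithelium the leading regions lay in Grhl1 (97.7, epithelial barrier genes), Zbtb20 (97.4), Rora (95.7, a clock and lipid nuclear receptor), Foxp2 (94.5), Nfia (93.4) and Runx1 (93.4). Among genes of lipid synthesis they lay in Gpd2 (97.3, glycerol phosphate dehydrogenase), Lpin1 (94.7, phosphatidate phosphatase), Scap (93.6, the SREBP escort), Lss (92.7) and Fdft1 (92.5), both of cholesterol synthesis, and Acacb (91.4, acetyl-CoA carboxylase beta). The Gpd2 region, chr2:57353494-57354355, was among the steadiest, with 772, 775 and 776 bp in CT26 niche, 753, 774 and 779 bp in CT26 distal, 820, 804 and 862 bp in 4T1 niche and 797, 811 and 795 bp in 4T1 distal libraries. In bp its CT26 values all lay below its 4T1 values, and after the scaling used below the log2 difference was 0.10 (limma adjusted p = 0.22).

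The regions were spread over 5751 of 19190 protein-coding genes with an interior (30.0%), where the interior is the gene less 1 kb at each end. Of these host genes 3013 held exactly 1 region, 692 held at least 5 and 146 at least 10, and the genes with at least 5 held 40.2% of all. Host genes had a median interior of 52.3 kb, against 12.5 kb for genes with none. Over host genes the number of regions followed interior length with a Spearman rank correlation of 0.51, across genes, which are not replicates. Nav2, a cytoskeleton-associated neuron navigator gene, held most with 36, followed by Pde4d (a cAMP phosphodiesterase, 32), Arhgap26 (a GTPase-activating protein, 29), Gse1 (28), Rad51b (a recombination factor, 25), Maml3 (a Notch coactivator, 23) and Nfia (23), and Vps13d, Itpr1 and Stard13 with 21 each.

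**Figure D1:**
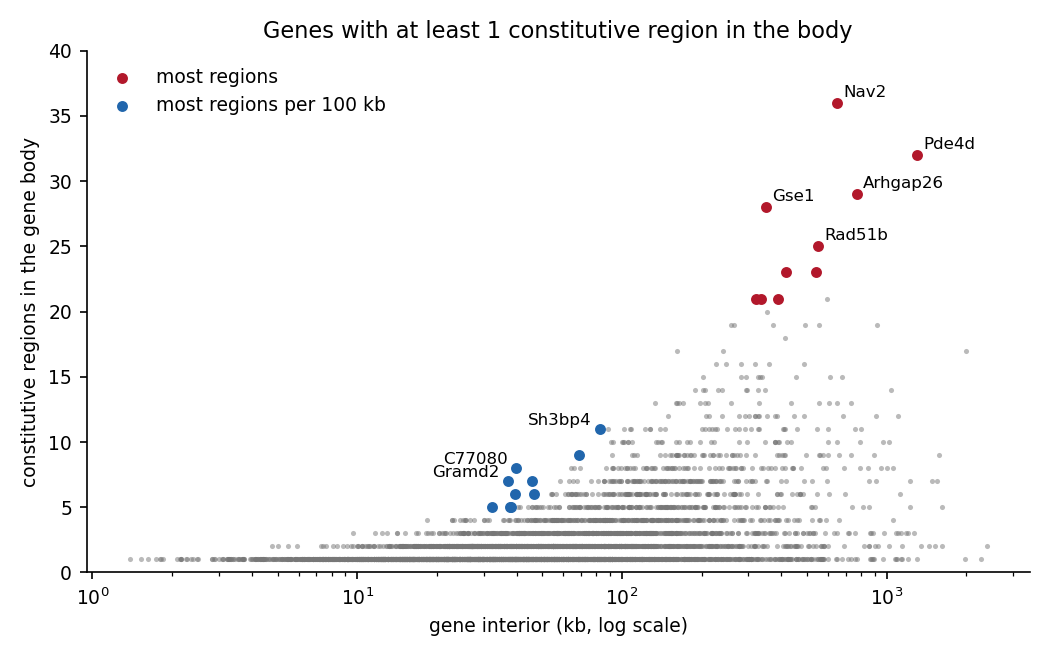
Constitutive regions in the gene body (vertical axis) against the length of the gene interior in kb (horizontal log axis) for the 5751 genes with at least 1. Red points are the 10 genes with most regions, led by Nav2 with 36, and blue points the 10 with most per 100 kb, led by C77080 with 20.1.

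Density picked out other genes. Among genes with at least 5 regions, C77080 held 20.1 per 100 kb and Gramd2, an AT1 marker, 18.9, against 1.36 over all protein-coding genes. Mast1, Slc43a2 (an amino acid transporter), Dram1 (an autophagy modulator), Sh3bp4, Pptc7, Ralgds, Poc1a and Ptpn1 (a tyrosine phosphatase) had 12.9 to 15.5. Of 551 genes with over 300 kb of interior, 174 had none, and the 10 longest of these were Cntnap2, Lsamp, Lrp1b, Csmd1, Pcdh15, Dpp10, Gpc5, Il1rapl1, Lrrc4c and Il1rapl2, most of them known for roles in neurons. Cntnap2 alone spans 2239 kb of interior without a region.

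Density also differed between gene lists, which were chosen with earlier results of these data known. AT2 markers had 35 regions in 13 of 26 genes with an interior, or 4.22 per 100 kb, and AT1 markers 59 in 18 of 25 genes, or 3.45. Etv5 (an ETS factor needed in AT2 cells) held 6, Atp8a1 7, and the AT1 genes Lmo7 15 and Gramd2 7. Transcription factors of lung epithelium had 184 regions in 33 of 45 genes (2.97 per 100 kb), with 23 in Nfia, 21 in Foxp1, 13 each in Rora and Rarb, 11 each in Zbtb20 and Tead1, and 10 in Runx1. Lipid genes had 2.80 per 100 kb, junction genes 2.91 and NF-kB and inflammation genes 4.45, the highest of the 19 lists given. EGF and FGF receptor signalling (1.54), AP-1 factors (2.08), TGF-beta and BMP (2.49), the circadian clock (2.51), interferon response (2.84), Wnt and Notch (3.30) and YAP and TEAD (3.42) genes also exceeded the 1.36 of all genes. Widely expressed control genes, short with a median interior of 3.68 kb, had 1 region in 20 genes. Median interiors were also short for AT2 markers (9.92 kb) and NF-kB genes (11.7 kb), against 19.3 kb over all protein-coding genes. By share of genes with a region the order differed, with 50% for AT2 markers and 43.75% for NF-kB genes. The share was 72% for AT1 markers, 73.3% for the transcription factors and 30.0% over all genes. The part of gene length in the densities was not tested.

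Markers of other lung cells were sparser. Leukocyte markers had 0.659 regions per 100 kb, in 4 of 26 genes, and 7 of the 11 lay in Lcp1, an actin-bundling protein. Fibroblast markers had 1.09 and endothelial markers 1.24, with 4 of the 15 endothelial regions in Tek, the angiopoietin receptor. Ciliated, club and basal markers had 0.799, and neuronal genes 0.171, with 17 of their 53 regions in Macrod2. As a check of the sort, a region of all 12 libraries of any position touched 27 of 28 AT2 markers (96.4%), 7 of 27 leukocyte (25.9%), 8 of 22 fibroblast (36.4%), 12 of 18 endothelial (66.7%) and 16 of 23 ciliated, club and basal markers (69.6%), where 65.1% of all protein-coding genes were touched. The endothelial and the ciliated, club and basal markers were thus close to the share of all genes. AT1 markers were touched in 24 of 25 genes (96.0%) and widely expressed control genes in 20 of 20. The check therefore does not separate AT2 from AT1 cells. The part of other cells in these regions was not tested.

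**Figure D2:**
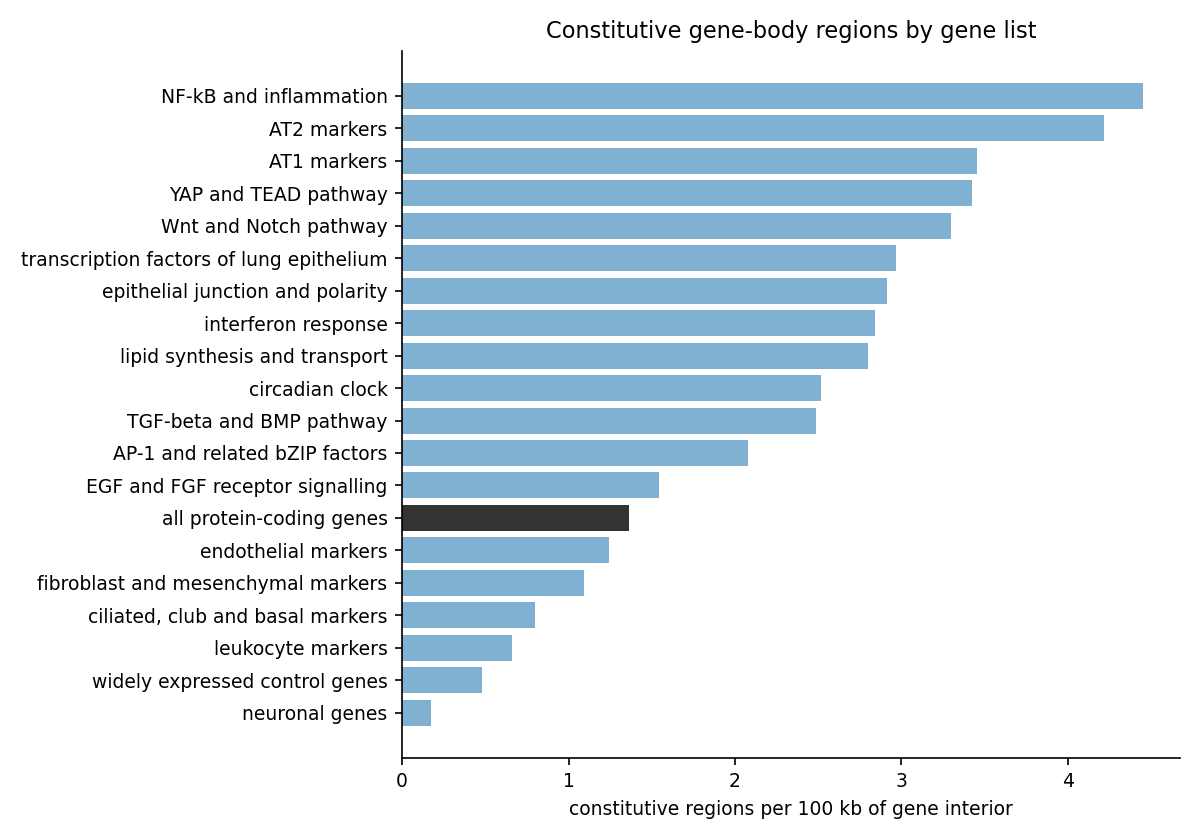
Constitutive gene-body regions per 100 kb of gene interior in 19 gene lists (blue) and over all protein-coding genes (black). Bars start at 0, and the NF-kB (4.45) and AT2 marker (4.22) lists lie at the top and neuronal genes (0.171) at the bottom. Gene length differs between the lists and was not adjusted for.

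Within host genes the regions were densest at 2 to 10 kb from the start and sparser with distance beyond. For 10676 regions in a single gene with a known strand, the density was 30.1 per Mb of interior at 1 to 2 kb from the start, 54.6 at 2 to 5 kb, 51.9 at 5 to 10 kb, 22.2 at 50 to 100 kb and 9.69 beyond 200 kb. The interior counted is that of the 4482 host genes alone, each included because it holds at least 1 region. Short host genes add few kb per region near the start, and far distances come only from long genes. This can raise the density near the start, and its part in the fall was not tested. The first 10 kb held 18.7% of the regions and 8.87% of the interior, and the median distance was 35.8 kb. By relative position the spread was narrower, from 6.89% to 11.7% of the regions in each of 10 equal parts of the gene, with the last part lowest and the first, at 8.85%, below parts 2 to 8. The rule leaves out any region that reaches within 1 kb of a gene end. It can thus lower the counts at 1 to 2 kb and in the first and last parts, and its share in these dips was not tested.

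**Figure D3:**
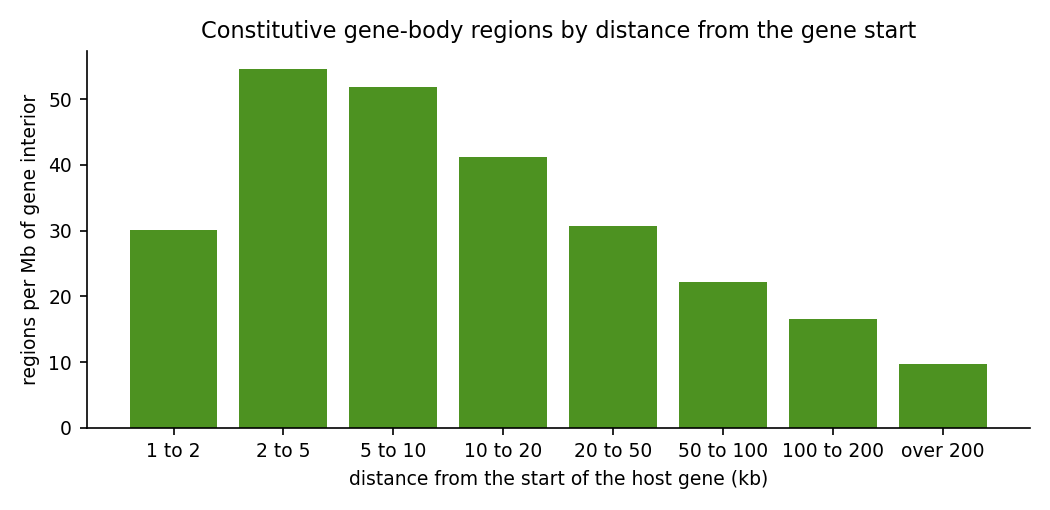
Constitutive regions per Mb of interior of the genes that hold them, by distance in kb from the start of the host gene. The bars start at 0 and fall to 9.69 per Mb beyond 200 kb, with the highest, 54.6, at 2 to 5 kb.

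Most regions stood apart from each other, 7518 (55.5%) having no other within 10 kb. Groups of at least 5 neighbours each within 10 kb of the next numbered 101 and held 586 regions. The largest were 10 regions over 62.9 kb of Col4a2 (a basement membrane collagen), 9 over 46.8 kb of Sh3bp4, 9 over 47.5 kb of Mbp, 9 over 57.3 kb of Sgms1 (sphingomyelin synthase) and 8 over 31.2 kb of C77080. These dense groups had mean percentiles of 23.4 to 46.5, below the 60.0 of all gene-body regions. The X chromosome carried 4.89 regions per Mb of gene interior, against 14.1 on the autosomes. RefSeq hairpins of 25 microRNAs lay in the regions, among them Mir126a and Mir126b in Egfl7, an endothelial gene, and Mir5114 in Scd2, a fatty acid desaturase gene.

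Set against the constitutive regions at gene ends, those inside gene bodies were shorter and weaker in every library. Their median length under peaks averaged 757 ± 79.8 bp, against 997 ± 68.0 bp at gene ends (SD over 12 libraries), a difference of -240 ± 21.5 bp. Their median percentile was 60.7 ± 4.57, against 77.4 ± 1.82 at gene ends (both lower in 12 of 12 libraries, exact sign-flip test, adjusted p = 0.000586). Against constitutive regions between genes they were slightly longer, by 21.8 ± 13.3 bp (11 of 12 libraries, exact sign-flip test, adjusted p = 0.000977), with a rank difference of -3.94 ± 0.765 points (lower in 12 of 12, adjusted p = 0.000586 by the same exact test).

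Length under peaks also differed between the groups of libraries. The median over the gene-body regions was 799, 709 and 726 bp in CT26 niche, 646, 639 and 654 bp in CT26 distal, 842, 864 and 805 bp in 4T1 niche and 799, 829 and 771.5 bp in 4T1 distal libraries. Every CT26 niche value exceeded every CT26 distal value, while the 4T1 niche and distal values overlapped. Niche exceeded distal by 67.8 bp over both models (exact permutation within models, two-sided, p = 0.01, adjusted p = 0.0233 over 7 tests). The difference was 98.3 bp in CT26 (exact p = 0.1, the smallest that 3 against 3 allows) and 37.2 bp in 4T1 (exact p = 0.2), and the difference between these changes was 61.2 bp (exact permutation p = 0.325). CT26 lay below 4T1 by 123 bp over both sites (exact permutation p = 0.005, the smallest possible, adjusted p = 0.0175).

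These lengths moved with the size of the deposited lists. Lists held 52655 ± 2498 peaks covering 40.4 ± 3.69 Mb in CT26 niche, 46808 ± 4206 and 33.2 ± 1.63 Mb in CT26 distal, 65373 ± 1597 and 50.9 ± 1.60 Mb in 4T1 niche and 57404 ± 976 and 44.2 ± 1.98 Mb in 4T1 distal libraries (SD, n = 3). Depth is unknown because the lists carry no counts, and its part in the lengths was not tested. The labels number the replicates and give 5 pooled lungs for each library, but do not say whether niche and distal samples share lungs. The p-values measure the spread between these samples and treat them as independent.

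**Figure D4:**
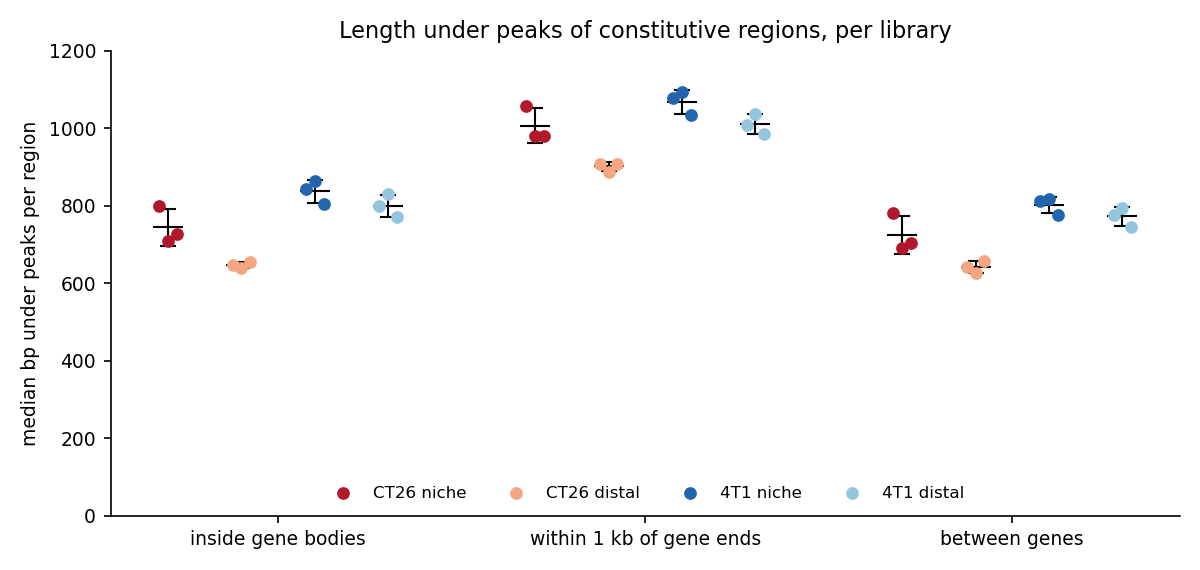
Median bp under peaks per constitutive region in each library (points), with the group mean and SD (black), for regions inside gene bodies, near gene ends and between genes. In gene bodies CT26 distal libraries lie lowest, at 639 to 654 bp, and 4T1 niche libraries highest, at 805 to 864 bp.

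A ratio within the library does not depend on scaling. The median length inside gene bodies was 74.0 ± 1.55% of that at gene ends in CT26 niche, 71.7 ± 0.490% in CT26 distal, 78.4 ± 0.618% in 4T1 niche and 79.1 ± 0.819% in 4T1 distal libraries. The ratio was lower in CT26 than in 4T1, with a log2 difference of -0.11 (exact permutation p = 0.005, adjusted p = 0.0175), with no overlap between the models. Niche and distal differed by 0.02 on that scale (exact permutation p = 0.315).

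Individual regions were tested on log2(bp + 100) after each library was scaled to its median over regions held by all 12, with limma across 64948 regions held by at least 3 libraries and Benjamini-Hochberg adjustment (threshold 0.05). A log2 change is niche minus distal, or CT26 minus 4T1, on that scale. Presence in all 12 lists keeps out regions that appear or vanish, and the width limit caps a gain. The named regions below are those with the largest changes among called regions whose groups do not overlap, so their lack of overlap is part of the choice. Gains and losses below are of length under peaks, and fold enrichment often did not follow. The mean fold percentile moved with the length in 14 of 36 longer and 1 of 7 shorter regions in 4T1. In CT26 it did so in 40 of 92 and 6 of 22, and over both models in 59 of 119 and 27 of 76. For CT26 against 4T1 it did so in 41 of 232 longer and 168 of 288 shorter regions. The reason was not tested.

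In 4T1, 36 gene-body regions were longer in the niche and 7 shorter, that is 0.266% and 0.0517% of 13540, where the background over all tested regions was 2.85% and 0.0985%. The median log2 change was -0.02, against 0.03 over all regions. A region in Baz2a (a subunit of the nucleolar remodelling complex that silences ribosomal genes), chr10:128096739-128098065, covered 1186, 1209 and 1305 bp in 4T1 niche, against 477, 483 and 451 bp in 4T1 distal libraries (log2 change 1.16 ± 0.10 SE, limma adjusted p = 0.000122). The same region covered 587, 603 and 587 bp in CT26 niche and 381, 476 and 412 bp in CT26 distal libraries, so all 4T1 niche values stood apart from the other 9. A region in Rbfox2 (a splicing factor), chr15:77173005-77174450, covered 1221, 1429 and 1332 bp in 4T1 niche and 521, 438 and 399 bp in 4T1 distal libraries (1.30 ± 0.16, limma adjusted p = 0.000449).

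Larger gains in log2 terms lay in Unkl (1.74), Get1 (1.73, insertion of tail-anchored proteins), Zcchc24 (1.55), Pacsin2 (1.48, membrane curvature) and Runx1 (1.44), and similar ones in Tbc1d16, Carhsp1 and Yes1 (a Src-family kinase, 1.09). With the same number of peaks from each library the changes were -1.75 in Get1, -0.81 in Zcchc24, 0 in Tbc1d16 and -0.24 in Yes1, and with peaks of -log10 q of at least 5 the change in Yes1 was -0.68. The Runx1 region, chr16:92652681-92655000, covered 931, 2256 and 870 bp in 4T1 niche and 406, 319 and 378 bp in 4T1 distal libraries, at a mean percentile of only 2.0. In the other direction a region in Cd101 (an immunoglobulin superfamily protein), chr3:101026038-101027983, covered 519, 564 and 529 bp in 4T1 niche, against 1456, 1464 and 1613 bp in 4T1 distal libraries (-1.39 ± 0.19, limma adjusted p = 0.00155). Smaller losses lay in Nod1 (a sensor of bacterial peptidoglycan, -0.64), Spred2 (an ERK pathway inhibitor, -0.59), Dram1 (-0.51), Anxa6 (-0.41) and Epb41l4a (-0.39, but 2.18 with -log10 q of at least 5). Of 20 alternative settings, given below, the loss stayed past the threshold in 16 for Cd101, but in 2 for Nod1 and 6 for Spred2. The count of 43 rested on each 4T1 niche library, being 4 without replicate 1, 0 without replicate 2 (limma, with 514 at an unadjusted p under 0.05) and 2 without replicate 3. A fit on regions held by all 12 alone, with no bp added, called 5, and kept Baz2a and Rbfox2 of the 16 named.

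In CT26, 92 regions were longer in the niche (0.679%, background 1.73%) and 22 shorter (0.162%, background 0.246%). A region in Rrbp1 (a ribosome-binding protein of the endoplasmic reticulum), chr2:143990708-143992497, covered 1254, 1380 and 1214 bp in CT26 niche, against 243, 261 and 436 bp in CT26 distal libraries (1.63 ± 0.16, limma adjusted p = 0.00076). Its values in 4T1 niche were 1352, 1790 and 1549 bp and in 4T1 distal 1137, 1228 and 1103 bp, so the CT26 distal libraries were the ones apart. The same held for Ank (a pyrophosphate transporter), chr15:27502454-27504645, with 1233, 1944 and 1240 bp in CT26 niche and 331, 285 and 538 bp in CT26 distal libraries (1.56 ± 0.21, limma adjusted p = 0.00363), against 1203 to 1378 bp in the 4T1 libraries. With the same number of peaks from each library the CT26 change of Ank was -0.18. The largest change was in Rassf3 (a Ras association domain protein), with 1920, 1521 and 1146 bp in CT26 niche and 273, 222 and 505 bp in CT26 distal libraries (1.80 ± 0.29). Others lay in Arhgap26 (within Fgf1 as well, 1.73), Lnpep (1.51), Zranb3 (1.47), Itpk1 (1.39), Arid4b (1.36), Zfat (1.36) and Micalcl (1.34). Of these, Lnpep (-1.30) and Itpk1 (-0.89) changed sign with the same number of peaks, and Zranb3 (-0.64) and Zfat (-1.36) with -log10 q of at least 5.

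Shorter in the CT26 niche was a region in Abhd17c (a depalmitoylating enzyme), chr7:84141535-84143360, with 876, 670 and 666 bp, against 1173, 1347 and 1320 bp in CT26 distal libraries (-0.90 ± 0.10, limma adjusted p = 0.00145). Here the CT26 niche libraries stood apart, since the 4T1 libraries held 1427 to 1826 bp. Ect2 (a guanine nucleotide exchange factor of cytokinesis), Fign (-0.93), Cdk6 (a cell cycle kinase, -0.87), Tbxas1 (thromboxane synthase, -0.83), Crcp (-0.82), Dock9 (-0.53), Inpp5a (-0.50) and Plch2 (-0.50) were among the others. The count of 114 grew to 189, 174 and 208 without CT26 distal replicate 1, 2 and 3 in turn. It was 72 in the fit on regions held by all 12 alone, which kept 9 of the 20 named. Of 20 alternative settings, the call stayed past the threshold in 20 for Abhd17c and 18 for Rrbp1. For Dock9 it did so in 2, and for Inpp5a and Plch2 in 4 each.

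Only 2 regions, in Msrb3 (a methionine sulfoxide reductase) and Dtnb, were longer in the niche of both models, which is 2.17% of the 92 in CT26 and 5.56% of the 36 in 4T1, and none was shorter in both. Over all tested regions, 101 were longer in both, or 8.98% of those longer in CT26 and 5.45% of those in 4T1. At an unadjusted limma p under 0.05 there were 1963 gene-body regions in CT26 (14.5%, against 16.2% of all tested) and 648 in 4T1 (4.79%, against 9.61%). The Msrb3 region, chr10:120840890-120842949, covered 1730, 1003 and 1109 bp in CT26 niche and 496, 329 and 440 bp in CT26 distal libraries (1.23 ± 0.16), and 1867, 1660 and 1700 bp in 4T1 niche and 956, 908 and 999 bp in 4T1 distal libraries (0.74 ± 0.16). Over both models its change was 0.99 ± 0.11 (limma adjusted p = 0.00106), but -0.15 when the same number of peaks was taken from each library.

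Averaged over both models, 119 regions were longer in the niche (0.879%, background 4.74%) and 76 shorter (0.561%, background 0.47%). The share of shorter regions was thus close to that over all tested regions. Those with the largest gains, other than Msrb3, Rrbp1, Rassf3, Unkl, Tbc1d16 and Arid4b, lay in Cystm1 (1.36), Ston2 (0.99), Capg (an actin-capping protein, 0.98) and Lmo7 (0.89). The Lmo7 region, chr14:101842185-101843654, in an AT1 marker gene, covered 1352, 1274 and 1178 bp in CT26 niche and 576, 405 and 324 bp in CT26 distal libraries, and 1330, 1457 and 1251 bp in 4T1 niche and 1181, 737 and 682 bp in 4T1 distal libraries. A region in Kctd7, chr5:130149781-130150612, was shorter, with 533, 538 and 536 bp in CT26 niche, 662, 640 and 641 bp in CT26 distal, 593, 506 and 520 bp in 4T1 niche and 741, 722 and 618 bp in 4T1 distal libraries (-0.38 ± 0.07, limma adjusted p = 0.00936). Dram1 (-0.44), Fign (-0.65), Dock9 (-0.39), Scfd2 (-0.74) and another Arhgap26 region (-0.24) were the other named losses, of which the Arhgap26 value was 0.49 with -log10 q of at least 5. The gain of Tbc1d16 was -0.28 with the same number of peaks. The Rarb region with the internal start fell by 0.21 ± 0.05 (limma adjusted p = 0.0395). Without 4T1 niche replicate 1, 2 or 3 the count of 195 was 30, 30 or 29, and without 4T1 distal replicate 1 it was 127. The fit on regions held by all 12 alone called 15, all longer, kept Msrb3 and Rrbp1 of the 16 named, and held none of the losses.

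Between the tumours the calls were more numerous, with 232 regions longer in CT26 (1.71%, background 1.84%) and 288 shorter (2.13%, background 7.93%). At gene ends 6.23% of constitutive regions were longer in CT26 and 0.655% shorter. None of the 232 met the naming rule of separate groups at both sites in unscaled bp. A region in Tmem184a, chr5:139812081-139814568, covered 728, 460 and 643 bp in CT26 niche, 1067, 785 and 519 bp in CT26 distal, 2345, 2328 and 2397 bp in 4T1 niche and 2348, 2393 and 2315 bp in 4T1 distal libraries (-1.49 ± 0.14, limma adjusted p = 0.000352). All CT26 values were below all 4T1 values. In Vps13d (a lipid transfer protein), chr4:144955713-144957878, the values were 743, 703 and 1035 bp in CT26 niche, 598, 566 and 468 bp in CT26 distal, 1912, 2027 and 1884 bp in 4T1 niche and 1135, 2086 and 2062 bp in 4T1 distal libraries (-1.15 ± 0.15, limma adjusted p = 0.00155).

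The other regions shorter in CT26 lay in Jpt2 (-1.35), Arhgef2 (a microtubule-bound guanine nucleotide exchange factor, -1.24), Ctnnbl1 (a spliceosome-associated protein, -1.22), Yes1 (-1.12), Ell (a transcription elongation factor, -1.09), Snd1 (-1.09), Rassf3 (-1.07) and Rbpms (an RNA-binding protein, -1.07). The count of 520 was 303 and 265 without 4T1 distal replicate 1 and 2, 122, 105 and 129 without 4T1 niche replicate 1, 2 and 3, and 324 without CT26 niche replicate 2. The fit on regions held by all 12 alone called 44, of which 42 were shorter in CT26.

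The niche change itself differed between the tumours in 66 regions by the interaction term, with the CT26 log2 change minus the 4T1 log2 change above 0 in 47 (0.347%, background 0.785%) and below 0 in 19 (0.140%, background 2.02%). Rbfox2 changed by -0.27 in CT26 and 1.30 in 4T1 on the log2 scale (difference -1.58 ± 0.22, limma adjusted p = 0.00325). Ank changed by 1.56 in CT26 and -0.14 in 4T1 (difference 1.70 ± 0.30, limma adjusted p = 0.00987), where the CT26 change has the exception given above. The count of 66 was 9, 7 and 10 without 4T1 niche replicate 1, 2 and 3, and 108, 115 and 114 without CT26 distal replicate 1, 2 and 3. The fit on regions held by all 12 alone called 11.

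**Figure D5:**
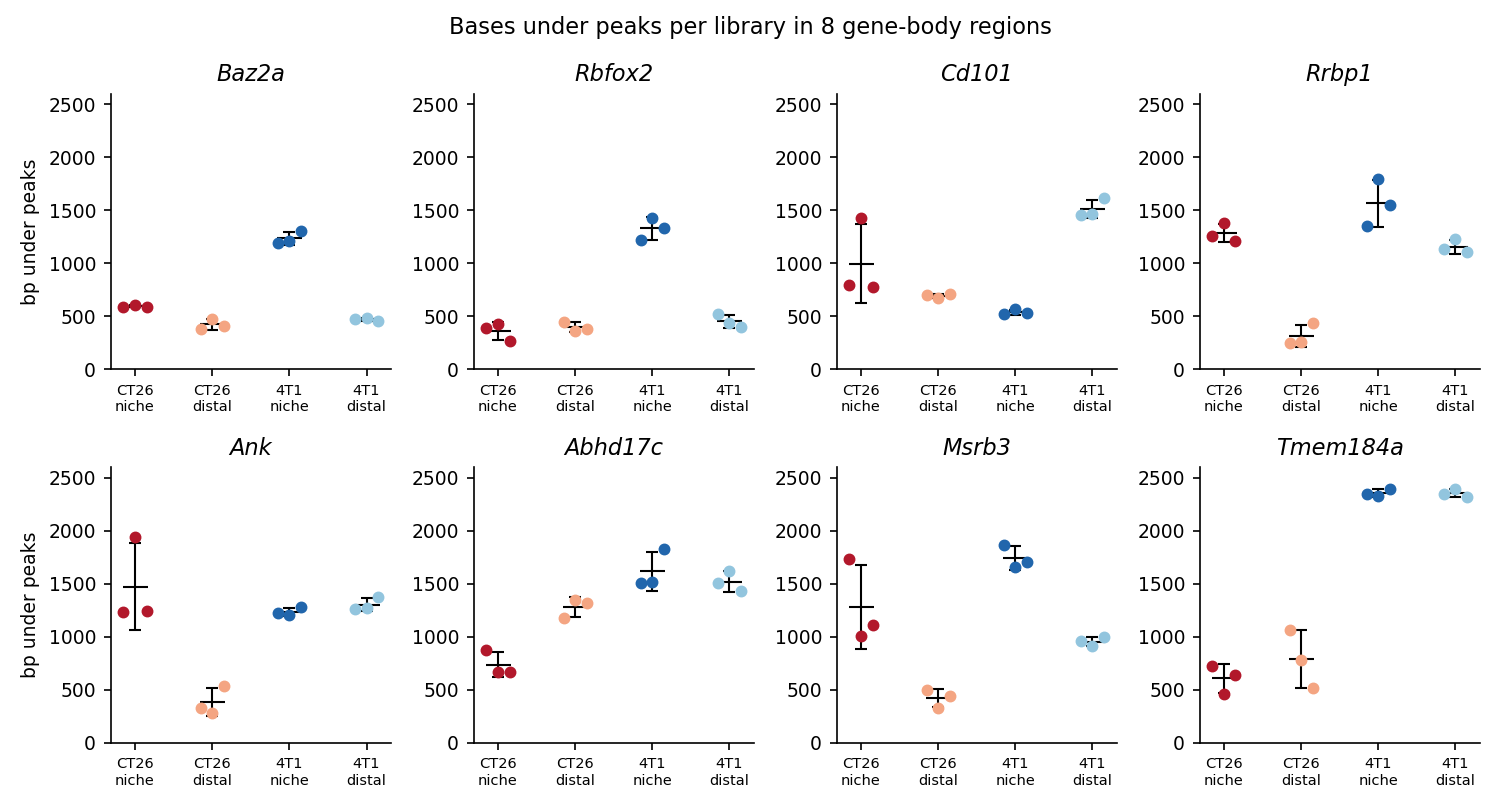
Bases under peaks in each library (points) with the group mean and SD (black) for 8 named regions, on a common axis from 0. In Baz2a and Rbfox2 the 4T1 niche libraries stand apart, in Rrbp1 and Ank the CT26 distal libraries, and in Tmem184a both CT26 groups lie at 460 to 1067 bp, below 2315 to 2397 bp in 4T1.

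The split of these calls depended on how libraries were scaled, more than any single region did. With no scaling, 289 regions were longer and 2 shorter in the CT26 niche, 46 and 2 in the 4T1 niche, 337 and 5 over both models, and 3 longer and 1259 shorter in CT26 than in 4T1. With scaling to the total covered length, 67 were longer and 111 shorter in the CT26 niche, 20 and 41 in the 4T1 niche, 77 and 1084 over both models, and 2863 longer and 164 shorter in CT26 than in 4T1. The median log2 change over all tested regions moved from -0.16 to -0.30 with no scaling and to -0.01 with total length in CT26 against 4T1. In CT26 niche against distal it moved from 0.01 to 0.16 with no scaling, and over both models from 0.06 to 0.16. A direction for the gene-body regions as a whole therefore holds only under the stated scaling.

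The gene lists held few of these calls. In the CT26 niche 0.679% of gene-body regions and 1.73% of all tested regions were longer, and in the 4T1 niche 0.266% and 2.85%, and the counts below were not tested against these shares. Among 184 regions of lung epithelial transcription factors, 1 passed in 4T1 (Runx1, longer), none in CT26 (29 of 184 at an unadjusted limma p under 0.05, where 16.2% of all tested regions were), and 2 over both models, both in Rarb and both shorter, with a median log2 change of -0.02 against 0.06 over all regions. Of 59 AT1 marker regions 2 were longer in the CT26 niche, both in Lmo7, and none passed in 4T1 (2 at an unadjusted limma p under 0.05). Of 83 lipid gene regions 2 were longer in the CT26 niche, in Acacb and Lpin2 (a phosphatidate phosphatase), and of 60 TGF-beta and BMP regions Smad4 was longer in CT26 and Ski in 4T1. Of 109 Wnt and Notch regions 2, in Lrp6 and Notch2, were longer in the CT26 niche. The genes in this paragraph that are not in the named sets were chosen after their values were seen.

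None of the 35 AT2 marker regions passed limma in the CT26 niche (3 at an unadjusted p under 0.05), the 4T1 niche (2), the niche over both models (4) or between tumours (6). With 114 of the 13540 gene-body regions called in CT26 and 43 in 4T1, a count of 0 among 35 is near the background. Between tumours, 1.71% of gene-body regions and 1.84% of all tested regions were longer in CT26, and 2.13% and 7.93% were shorter. The list counts between tumours were not tested against these shares. Of 112 junction gene regions 3 were longer in CT26, among them those in Cgnl1 and Itgb6, and 3 shorter, among them those in Cdh1 and Ctnnb1. Of 184 transcription factor regions 3 were longer, among them those in Pparg and Runx1, and 2 shorter (Rora, Zbtb20). Of 60 TGF-beta and BMP regions 4 were shorter (Ski, Smad1, Smad4, Smurf1). Markers of other cells had few calls. The median log2 change in the CT26 niche was -0.18 over the 11 leukocyte regions and -0.15 over the 11 fibroblast regions, against -0.02 over all gene-body regions and 0.01 over all tested regions. In the 4T1 niche it was -0.03 for leukocyte and -0.09 for fibroblast regions, against -0.02 over all gene-body regions and 0.03 over all tested regions. Erg, of 15 endothelial regions, was longer in CT26, Twist2, of 11 fibroblast regions, was shorter in the niche over both models, and Aldh1a1, of 16 ciliated, club and basal regions, was longer in CT26. The 11 leukocyte regions had no limma call in these 4 comparisons, with 1 at an unadjusted p under 0.05 in the CT26 niche, 0 in the 4T1 niche, 2 over both models and 3 between tumours.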

How the data were processed

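Each of 12 Omni-ATAC-seq libraries has 1 broad-peak list from the authors, in GRCm38 coordinates. Per the submitters' processing notes MACS2 and bedtools were used. Versions, aligner and settings are not stated in the labels. The labels list the molecule as RNA, whereas their protocol describes ATAC-seq. The deposited fold enrichment (a ratio within each library) and the deposited -log10 q and -log10 p of each peak were used as written by the authors' peak caller. The deposited score per peak, by the authors' peak caller, was not used. Every deposited peak had a -log10 q of at least 1. The lists hold no counts, so depth is unknown and no counting interval was computed.

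Peaks were merged where they overlapped by at least 1 bp, and the bp under peaks per region and library were the measurement. Gene bodies came from the RefSeq table of GRCm38.p6 (21631 protein-coding genes), which gives no exons, so exonic and intronic positions were not annotated. No genome sequence was used, so sequences come only from the table of start windows (250 bases before and 50 after each start). Motif shares refer to these windows.

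Lengths were divided by the library's median over regions held by all 12 libraries, 100 bp was added, and log2 values of 64948 regions held by at least 3 libraries entered a linear model in limma 3.58.1 (R 4.3.3) with a mean for each of 4 groups and moderated variances with a trend (8 residual degrees of freedom) with Benjamini-Hochberg adjustment over all of them. A group without peaks in regions that are not constitutive lowers the shared spread, and such regions enter the adjustment. Library medians were compared by exact permutation over libraries. The scripts were tested on simulated data. Other tools were Python 3.11.15, numpy 2.4.6, pandas 2.3.3, scipy 1.17.1 and matplotlib 3.10.9.

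The regions, gene lists and tests were chosen with earlier results of these data known. Named regions are the 10 of highest mean fold percentile, up to 6 genes each from 4 lists, the genes and groups of neighbours with most regions, and in each comparison up to 10 gains and 10 losses among called regions whose groups do not overlap (in both models or sites for the averaged comparisons). Some genes and 1 gene list that these rules name are not reported here. Predicted gene models were left out of these, except within the lists. Alternatives changed the scaling, the bp added, the regions tested, the peak threshold, the number of peaks, the replicate block and the libraries included.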

Additional observations from a re-analysis of the deposited data

Results flagged for a closer look

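Each result here is a gene-body region, or a count of them, whose niche change differed between CT26 and 4T1 by the interaction term of the limma fit (adjusted p under 0.05 over 64948 regions). There were 66 such regions. Those named in the report are given as the CT26 log2 change minus the 4T1 log2 change, with no explanation.

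The difference was below 0 for Yes1 (difference -1.78 ± 0.27 SE), Ect2 (-1.62 ± 0.28), Rbfox2 (-1.58 ± 0.22), Carhsp1 (-1.29 ± 0.22), Cdk6 (-1.08 ± 0.25), Abhd17c (-0.914 ± 0.144), Baz2a (-0.895 ± 0.146) and Plch2 (-0.708 ± 0.150). It was above 0 for the region in Arhgap26 and Fgf1 (1.83 ± 0.40), Ank (1.7 ± 0.30), Cd101 (1.65 ± 0.28) and Rrbp1 (1.3 ± 0.23). Limma adjusted p ranged from 0.00325 for Rbfox2 to 0.0497 for Cdk6. Cd101 changed by 0.26 in CT26 and -1.39 in 4T1 on the log2 scale and Yes1 by -0.68 in CT26 and 1.09 in 4T1, which are opposite signs. The sign in Yes1 depended on the peaks used. Its 4T1 change was -0.24 with the same number of peaks from each library and -0.68 with -log10 q of at least 5. The CT26 change of Ank was -0.18 with the same number of peaks. No group has more than 3 libraries, so no group was tested for a library far from the others.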

How the results depend on the processing

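The differences of median length between groups of libraries, and the ratio to gene ends, kept their direction and their side of the threshold with the mean, with peaks of -log10 q of at least 5, with the same number of peaks (42067 per library) and without any 1 library. Within 1 model the smallest possible exact permutation p is 0.1. Niche against distal within a model could therefore not cross 0.05, and only the direction is informative there. The comparisons of the ratio and of the difference between tumours under these settings were added after seeing the data. Counts of called regions moved more, and the cause was not tested. With -log10 q of at least 5 they were 81 (4T1 niche), 402 (CT26 niche), 496 (both models), 1664 (CT26 against 4T1) and 351 (difference of niche changes). With no scaling they were 291, 342 and 1262, and with total covered length 178, 1161 and 3027, for the CT26 niche, both models and CT26 against 4T1. Regions held by all 12 alone, with no bp added, gave 5, 72, 15, 44 and 11, in the order 4T1 niche, CT26 niche, both models, CT26 against 4T1 and difference. Testing regions of at least 1 library gave 129 for both models, and the same number of peaks gave 191 for CT26 against 4T1. Leaving out 1 library gave 0 to 49, 84 to 208, 29 to 253, 105 to 765 and 7 to 115, in that same order. Regions meeting the rule numbered 6646 with -log10 q of at least 5 and 6610 with peaks covering at least 50% of the region. The labels do not say whether replicate numbers pair the samples. Same-numbered libraries of different groups had correlations of -0.028 to 0.033, and different-numbered ones -0.050 to 0.045. Between 4T1 niche and distal, same numbers had 0.028, 0.033 and 0.019, and all different numbers were negative. Between CT26 niche and distal, same numbers had -0.012, 0.006 and 0.008. These small values do not settle whether niche and distal samples were paired. With the replicate number as a block, the count for CT26 against 4T1 was 332, and the other 4 counts were within 1.5 times (31, 85, 131 and 54).

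Of 1222 alternative values for named regions, 802 stayed past the threshold, 406 did not and 14 changed sign or came to 0. With -log10 q of at least 5 these were Yes1 (-0.68, 4T1), Epb41l4a (2.18, 4T1), Zranb3 (-0.64, CT26), Zfat (-1.36, CT26) and Arhgap26 (0.49, both models). With the same number of peaks they were Get1 (-1.75), Zcchc24 (-0.81), Tbc1d16 (0) and Yes1 (-0.24) in 4T1, Ank (-0.18), Lnpep (-1.30) and Itpk1 (-0.89) in CT26, and Tbc1d16 (-0.28) and Msrb3 (-0.15) over both models. With no read counts, a difference in depth cannot be told apart from a difference in the length called.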
